A study of Mus musculus with 4 samples.

Results

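The genes described here are 10 genes of cell division, 7 of them protein kinases, chosen by symbol as rows of a deposited table of 24426 mouse genes: the kinases Cdk1, Plk1, Aurka, Aurkb, Aurkc, Bub1b and Nek2, the phosphatase gene Cdc25c, the APC/C activator Cdc20 and the scaffold gene Incenp. All 10 were found in the table and all reached 0.5 FPKM in at least 1 library, as did 16652 genes in all. RNA depleted of ribosomal RNA was sequenced from germ cells of male C57BL/6 mice, with 1 library for each of 4 labelled stages. Type A spermatogonia (SG) came from the pooled testes of 30 mice aged 7 days. The spermatocytes, at preleptotene (PlpSC), leptotene or zygotene (L/ZSC) and pachytene (PaSC), were taken from 5 mice aged 17 days, and sedimentation at unit gravity separated the cells. No treatment or altered allele is named in the labels. FPKM are fragments per kilobase of transcript, scaled to the depth of the library, so levels of different genes can be set side by side within a library.

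CDK1 with a B-type cyclin drives entry into M phase, and CDC25 phosphatases switch it on by removing inhibitory phosphates. Aurora, Polo and NEK kinases then build the spindle and separate the centrosomes. The spindle checkpoint, in which BUBR1 (the product of Bub1b) takes part, holds back CDC20 and the anaphase-promoting complex (APC/C) until chromosomes are attached. In the testis this machinery serves both the mitoses of spermatogonia and the meiotic divisions that follow pachytene, and spermatocytes store many of the RNAs long before they divide.

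The stage labels were not all borne out. The lncRNA values of the SG-labelled column were a constant multiple of those that the supplementary lncRNA table of the study gives for PaSC, within 1% for 653 of 653 lncRNAs at 0.5 FPKM or more in both, and the L/ZSC- and PaSC-labelled columns matched no column of that table in this way. The PlpSC-labelled column matched its own stage for 642 of 642. Marker genes differed likewise: the summed FPKM of 8 pachytene genes was 5639 in SG-labelled cells, 773 in PlpSC-, 8573 in L/ZSC- and 9003 in PaSC-labelled cells, led by the germ cell lactate dehydrogenase gene Ldhc. Of 6 leptotene and zygotene markers 5 were highest in PlpSC-labelled cells, with a summed FPKM of 669 against 234 in L/ZSC-labelled cells. The study describes a check of purity by morphology and marker genes, made on the separated cells. Of 9 markers of undifferentiated spermatogonia 0 were highest in SG-labelled cells and 7 in PlpSC-labelled cells. Their summed FPKM of 97.7 and 81.2 in these 2 libraries were close, but Id4 alone gave 73.1 and 19.7 of these sums. For that reason a stage name here is only the label of a column. The ages are those the study gives for the stages, and whether they hold for these columns was not tested. The count of members lowest in a library is also given without the SG-labelled library. Distances between profiles use all 4 libraries.

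The lowest values of the table gathered at a constant product of FPKM and transcript length, 45 to 54.5 FPKM times bases in the 4 libraries, which was taken as the worth of 1 fragment. The fragments behind each value were estimated from this and give rough 95% intervals that cover counting error only, not the spread between animals, which 1 library per stage cannot show. No difference between stages was tested, and higher or lower in a count means a plain FPKM ratio over 1.5.

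Promoter sequence is shown for the gene with the most even level, Cdk1, and for 4 members with wide ranges, because genes of the division programme share promoter elements. The letters TTTGAA or TTTAAA are forms of the cell cycle homology region, bound by MuvB complexes, and CCAAT is the box bound by NF-Y. Each line gives the 120 bases before the RefSeq transcription start on the gene's own strand (GRCm38.p6), with these motifs, on either strand, in capitals.
Cdk1 (chr10:69352913-69353032, minus strand): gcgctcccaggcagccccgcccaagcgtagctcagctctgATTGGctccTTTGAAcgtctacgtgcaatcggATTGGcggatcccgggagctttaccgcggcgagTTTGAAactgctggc
Plk1 (chr7:122159315-122159434, plus strand): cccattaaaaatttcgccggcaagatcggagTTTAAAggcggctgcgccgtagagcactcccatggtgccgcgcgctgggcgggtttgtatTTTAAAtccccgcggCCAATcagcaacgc
Aurka (chr2:172370571-172370690, minus strand): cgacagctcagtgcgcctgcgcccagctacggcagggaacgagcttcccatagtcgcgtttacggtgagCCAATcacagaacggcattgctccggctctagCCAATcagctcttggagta
Nek2 (chr1:191821353-191821472, plus strand): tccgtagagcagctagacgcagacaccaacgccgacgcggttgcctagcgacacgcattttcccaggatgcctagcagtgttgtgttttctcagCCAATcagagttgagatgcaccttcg
Aurkc (chr7:6995265-6995384, plus strand): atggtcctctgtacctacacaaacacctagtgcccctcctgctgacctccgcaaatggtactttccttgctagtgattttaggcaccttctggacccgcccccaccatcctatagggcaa

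Promoters were found for 7 of the 10 members, the 5 above, Bub1b and Cdc20, and the motifs were searched in the 250 bases before the start. CCAAT was present in 6 of the 7, all but Aurkc, against 33.9% of 32851 promoters. TTTGAA was present in 2, Cdk1 and Cdc20, against 16% of promoters, and TTTAAA in 1, Plk1, against 12.1%. In Cdk1 and Cdc20 a TTTGAA began 15 and 18 bases before the start. These matches describe the letters of the windows and do not show that a factor binds there.

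The members were lowest in the PlpSC-labelled library in 8 of 10 cases, against 33.8% of all expressed genes, and 0 of the 10 were highest there, against 41.3%. The exceptions were Cdk1, lowest in PaSC-labelled cells as were 40.3% of expressed genes, and Cdc25c, lowest in SG-labelled cells as were 8.55%. The SG-labelled library was the highest for 0 of the 10 members and for 16.3% of expressed genes, and the L/ZSC-labelled library the lowest for 0 members (1 without the SG-labelled library) and for 17.3%. Cdk1, Aurkc, Bub1b, Cdc20 and Nek2 were highest in L/ZSC-labelled cells, 5 of 10 against 15.1% of expressed genes, and Cdc25c, Plk1, Aurka, Aurkb and Incenp in PaSC-labelled cells, 5 against 27.4%. Without the SG-labelled library, 8 of the 10 were again lowest in PlpSC-labelled cells, against 38.4% of expressed genes. With all 4 libraries, 10 members were lowest there after scaling the libraries to equal sums of FPKM, against 58.7% of expressed genes, and 7 under median ratio scaling, against 34.9%. Markers of other cells differed too: 6 of 6 macrophage markers, 5 of 5 interstitial fibroblast markers and 4 of 4 peritubular myoid markers were highest in PlpSC-labelled cells, with summed FPKM of 328, 714 and 118 against ranges of 9.45 to 20.7, 6.02 to 37.3 and 10.0 to 22.0 in the other libraries. Sertoli cell markers were highest in SG-labelled cells, 8 of 9, with summed FPKM of 1523 there and 766 in PlpSC-labelled cells. Leydig cell markers summed to 709 FPKM in PlpSC-labelled cells, against 33.3 in SG-, 49.1 in L/ZSC- and 2129 in PaSC-labelled cells, where 4 of 5 were highest. Endothelial markers were highest in SG-labelled cells for 2 of 3. Of 8 pachytene markers, 7 were lower and 0 higher from SG- to PlpSC-labelled cells, against 30.9% and 30.1% of expressed genes. From PlpSC- to L/ZSC-labelled cells 7 were higher and 0 lower, against 30.7% and 45.4%. Their median differences in log2(FPKM + 0.5) were -3.13 and 3.56, beside -0.51 and 1.00 for the members, so the low values were not particular to the members. No marker was listed at 0 in any library. The part of these cells in the low member values was not tested, and in bulk RNA fewer cells of a type and less RNA per cell cannot be told apart.

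**Figure D1:**
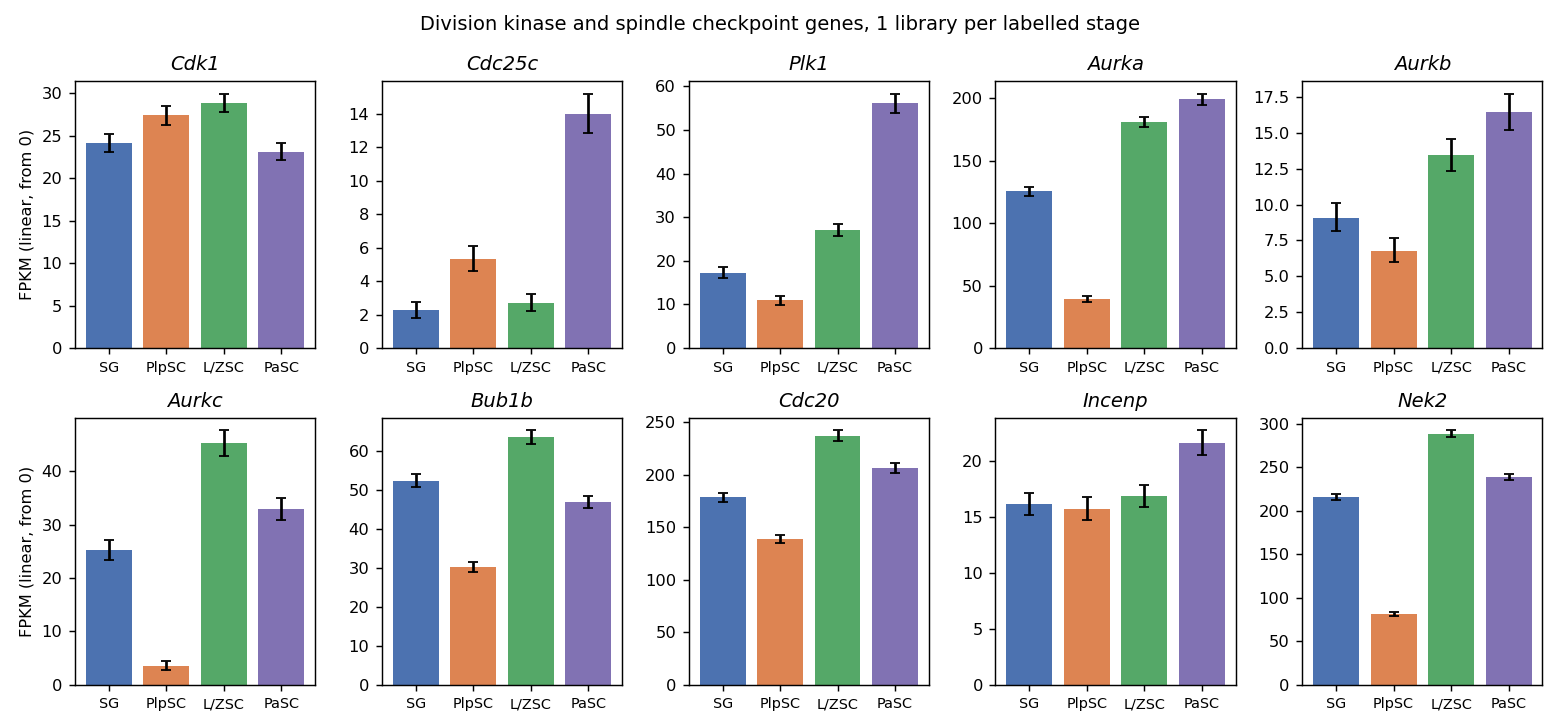
FPKM of the 10 genes (linear axes from 0) in the libraries labelled SG, PlpSC, L/ZSC and PaSC, 1 library each, with bars for the 95% interval of counting error from the estimated fragments. The PlpSC-labelled library is the lowest bar for 8 genes, while Cdk1 stays between 23.1 and 28.9 FPKM and Cdc25c reaches 14.0 FPKM in PaSC-labelled cells.

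Cdk1, whose product is the kinase at the centre of the switch, had the smallest range of the 10. It was at 24.2 FPKM in SG-labelled cells, 27.4 in PlpSC-, 28.9 in L/ZSC- and 23.1 in PaSC-labelled cells. The highest value was 1.25 times the lowest, and 1.87% of the 15688 expressed genes listed above 0 in every library had a smaller ratio. The neighbouring values of PlpSC- and L/ZSC-labelled cells differed by 1.05-fold with a 95% counting interval of 0.996 to 1.11, and those of SG- and PaSC-labelled cells also overlapped within counting error. After scaling the libraries to equal sums of FPKM, Cdk1 was 2.42 times higher in L/ZSC-labelled cells than in PlpSC-labelled cells. Under that scaling 52.8% of expressed genes were higher at this step by more than 1.5-fold. Under median ratio scaling the widest ratio of Cdk1 was 1.37, so its evenness depends on the scaling.

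Cdc25c, the phosphatase gene upstream of CDK1, was the least abundant member in every library but the PlpSC-labelled one, where Aurkc was lower, and followed another order. Its FPKM were 2.25 in SG-labelled cells, 5.31 in PlpSC-, 2.69 in L/ZSC- and 14.0 in PaSC-labelled cells, from an estimated 86, 189, 116 and 566 fragments. The PaSC-labelled library stood apart from the others, at 5.21 times L/ZSC-labelled cells (95% counting interval 4.26 to 6.41), and SG- and L/ZSC-labelled cells did not differ beyond counting error. Cdc25c was 2.36 times higher in PlpSC-labelled cells than in SG-labelled cells, and 1.98 times higher than in L/ZSC-labelled cells. After scaling the libraries to equal sums both of these differences turned, to a ratio of 0.934 for PlpSC over SG and 1.16 for L/ZSC over PlpSC. The larger difference at the last step did not turn, at 6.78-fold under that scaling and 5.84-fold under median ratio scaling. Spermatid genes were also highest in PaSC-labelled cells, 9 of 9, with a summed FPKM of 12305 against 111 in L/ZSC-labelled cells, led by the transition protein gene Tnp1 at 4407 FPKM. Leydig cell genes were higher there as well, 5 of 5 by more than 1.5-fold, with a summed FPKM of 2129 against 49.1, and the part of either cell type in the Cdc25c value was not tested.

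Within the CDC25 family the balance differed between the libraries. Cdc25a, better known from the entry into S phase, held 81.2%, 68.8%, 83.1% and 72.2% of the family's summed FPKM in the order labelled SG, PlpSC, L/ZSC and PaSC. Cdc25c held 9.14% in SG-labelled cells and 27.5% in PaSC-labelled cells, while Cdc25b, a further mitotic CDC25, held 9.67% in SG-labelled cells and 0.345% in PaSC-labelled cells. These shares lie within 1 library each and are free of any scaling between libraries.

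Plk1, the Polo kinase of centrosomes and kinetochores, had its highest level in PaSC-labelled cells and its lowest in PlpSC-labelled cells. It stood at 17.2 FPKM in SG-labelled cells, 10.9 in PlpSC-, 27.0 in L/ZSC- and 56.1 in PaSC-labelled cells. All neighbours in the order of these levels differed by more than counting error. PaSC-labelled cells were at 2.08 times L/ZSC-labelled cells (1.94 to 2.22), and L/ZSC-labelled cells at 1.57 times SG-labelled cells (1.43 to 1.72). SG-labelled cells were at 1.58 times PlpSC-labelled cells (1.40 to 1.78). L/ZSC-labelled cells were at 2.47 times PlpSC-labelled cells (2.22 to 2.76). With Cdc25c it was 1 of 2 members that were more than 1.5 times higher in PaSC-labelled cells than in L/ZSC-labelled cells, against 24.9% of expressed genes, and 0 were lower, against 24.6%. Spermatid and Leydig cell genes were higher in that library too, as given above for Cdc25c, and their part in the Plk1 value was not tested. In the Polo family Plk1 held 22.4% of the summed FPKM in PlpSC-labelled cells, 41.7% in L/ZSC-labelled cells and 58.9% in PaSC-labelled cells. Plk4, the kinase of centriole duplication, was the largest of the 5 in SG-, PlpSC- and L/ZSC-labelled cells, at 40.4%, 38.7% and 45.0%. Plk2, a Polo kinase with roles in centriole duplication and stress responses, held 28.2% in PlpSC-labelled cells and 6.65% in PaSC-labelled cells.

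Aurka, the Aurora kinase of centrosomes and spindle poles, was the most abundant Aurora gene in every library. Its FPKM were 125 in SG-labelled cells, 39.2 in PlpSC-, 181 in L/ZSC- and 199 in PaSC-labelled cells. PlpSC-labelled cells lay 3.20-fold below SG-labelled cells (3.01 to 3.40) and 4.60-fold below L/ZSC-labelled cells (4.35 to 4.88), whereas PaSC-labelled cells were at 1.10 times L/ZSC-labelled cells (1.07 to 1.14).

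Aurkb and Aurkc encode the alternative kinases of the chromosomal passenger complex, which corrects faulty attachments at kinetochores. AURKB serves mitosis, and AURKC is found mainly in germ cells and can take its place in meiosis. Aurkb stood at 9.10 FPKM in SG-labelled cells, 6.79 in PlpSC-, 13.4 in L/ZSC- and 16.4 in PaSC-labelled cells. Aurkc stood at 25.2, 3.56, 45.2 and 32.9 FPKM in the same order. Its low value in PlpSC-labelled cells, from an estimated 91 fragments, was 7.08-fold below SG-labelled cells (5.69 to 8.91) and 12.7-fold below L/ZSC-labelled cells (10.3 to 15.9), the widest differences among the 10 genes at both steps. The other 3 libraries lay within 1.79-fold of each other.

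The order of the paralogs differed as well. Aurkc was 2.77 times Aurkb in SG-labelled cells (2.43 to 3.16), 3.36 times in L/ZSC-labelled cells (3.05 to 3.71) and 2.0 times in PaSC-labelled cells (1.81 to 2.21). In PlpSC-labelled cells it was 0.523 times Aurkb (0.407 to 0.668), so Aurkb was the more abundant of the pair in that library alone. Pachytene markers were low in that library too, and the part of pachytene cells in this change of order was not tested. Of the summed Aurora FPKM, Aurka held 75.5% to 80.1% in the 4 libraries, Aurkb 13.7% in PlpSC-labelled cells and 5.62% to 6.61% elsewhere, and Aurkc 7.17% in PlpSC-labelled cells and 13.2% to 18.9% elsewhere. Aurkc has close copies in the genome: 55.5% of the 50-base words of its RefSeq-linked transcripts also occur in annotated transcripts of 10 other genes, 0 of them in the table, and Gm12463 alone holds 43.1%. How the authors assigned reads that fit several places was not given in the sources used here, so the level of Aurkc is uncertain by an unknown amount. No such word of Aurka, Aurkb, Cdk1, Cdc25c, Bub1b or Incenp occurs in another gene. For Plk1, Cdc20 and Nek2 the shares were 11.9%, 11.6% and 7.84%.

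**Figure D2:**
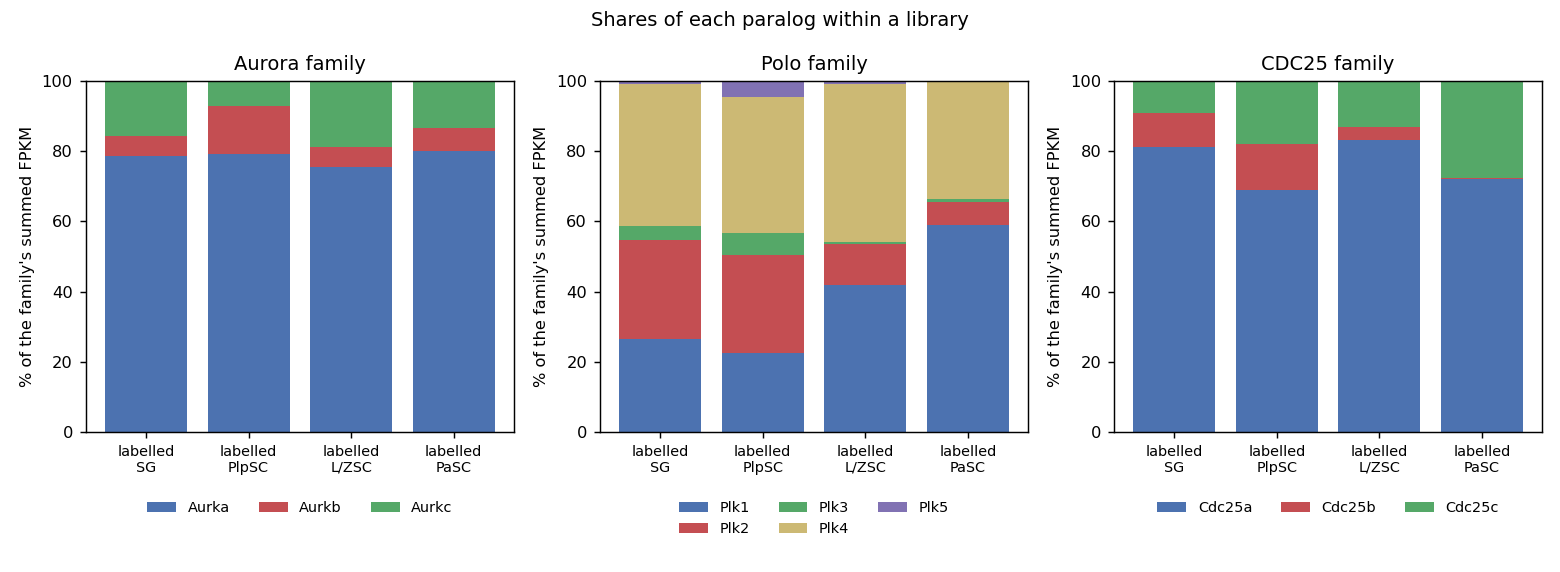
Share of each paralog in the summed FPKM of the Aurora, Polo and CDC25 families (vertical axis, percent, from 0 to 100) within the libraries labelled SG, PlpSC, L/ZSC and PaSC. Aurkc takes 7.17% of the Aurora sum in PlpSC-labelled cells and 13.2% or more elsewhere, and Plk1 and Cdc25c take their largest shares, 58.9% and 27.5%, in PaSC-labelled cells.

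Incenp, the scaffold that binds either of these kinases, was nearly as even as Cdk1. It was at 16.1 FPKM in SG-labelled cells, 15.7 in PlpSC-, 16.8 in L/ZSC- and 21.6 in PaSC-labelled cells. The first 3 values did not differ beyond counting error, and PaSC-labelled cells were at 1.28 times L/ZSC-labelled cells (1.19 to 1.38). Incenp was therefore 4.42 times as abundant as Aurkc in PlpSC-labelled cells, but 0.372 times in L/ZSC-labelled cells. After scaling the libraries to equal sums of FPKM, Incenp was 2.59-fold lower in PlpSC-labelled cells than in SG-labelled cells. Under that scaling 70.4% of expressed genes were lower at this step by more than 1.5-fold.

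Bub1b and Cdc20, the inhibitor and the target in the spindle checkpoint, had the most similar profiles of the 45 pairs of members. Bub1b was at 52.5 FPKM in SG-labelled cells, 30.3 in PlpSC-, 63.6 in L/ZSC- and 46.9 in PaSC-labelled cells. Cdc20 was at 178, 139, 237 and 206 FPKM in the same order. The Euclidean distance of their centred log2(FPKM + 0.5) profiles over the 4 libraries was 0.34, and the largest distance, between Cdc25c and Aurkc, was 3.44. Genes outside the members lay closer, the nearest at 0.02 from Cdc20 and 0.04 from Bub1b. Cdc20 was 3.40 to 4.58 times as abundant as Bub1b in each library. Between PlpSC- and L/ZSC-labelled cells, Bub1b differed by 2.10-fold (1.99 to 2.21) and Cdc20 by 1.71-fold (1.65 to 1.77).

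Nek2, a kinase that separates centrosomes, had the highest FPKM of the members in 3 of the libraries. It was at 216 FPKM in SG-labelled cells, 81.2 in PlpSC-, 288 in L/ZSC- and 239 in PaSC-labelled cells. In PlpSC-labelled cells, where Cdc20 was higher, Nek2 was 2.66-fold below SG-labelled cells (2.57 to 2.74) and 3.55-fold below L/ZSC-labelled cells (3.44 to 3.66). Its highest value exceeded those of 96.5% of the expressed genes. Genes on the opposite strand overlap the annotated exon bases of 4 members: Gm38037 covers 6.60% of those of Nek2, Gm3550 12.7% of Cdc25c, Gm44985 7.09% of Plk1 and Elovl1 2.84% of Cdc20. The study names a directional library kit, but the strand setting of the counting is not known here, so reads of these genes could be included. For Cdc25c, however, no 50-base word of its RefSeq-linked transcripts occurs in another gene on either strand.

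From SG- to PlpSC-labelled cells, 5 members were lower by more than 1.5-fold (Plk1, Aurka, Aurkc, Bub1b and Nek2), against 30.9% of expressed genes, and 1 was higher (Cdc25c), against 30.1%. Their median difference was -0.51 in log2(FPKM + 0.5), beside 0 for all expressed genes. From PlpSC- to L/ZSC-labelled cells, 7 were higher, against 30.7%, and 1 was lower, against 45.4%, with a median of 1.00 beside -0.29. These steps share the PlpSC-labelled library, so the second is no independent repeat of the first. From L/ZSC- to PaSC-labelled cells the median was -0.03 beside -0.10. Scaling to equal sums put the median of all expressed genes at -1.04, 0.57 and 0.20 for the 3 steps, and those of the members at -1.80, 2.14 and 0.35, so at the first 2 steps the members lay on the same side of all genes as in the deposited values. Of all genes called at the 3 steps, 49.4%, 40.4% and 50.3% were higher in the deposited values, against 10.9%, 69.0% and 75.1% after that scaling and 54.4%, 42.2% and 62.1% under median ratios. Of the 10 members, 8 had a ratio of highest to lowest FPKM over 1.5, against 92.3% of expressed genes, and 5 without the PlpSC-labelled library (Cdc25c, Plk1, Aurka, Aurkb and Aurkc), against 73.7%, so neither count stood above the background.

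**Figure D3:**
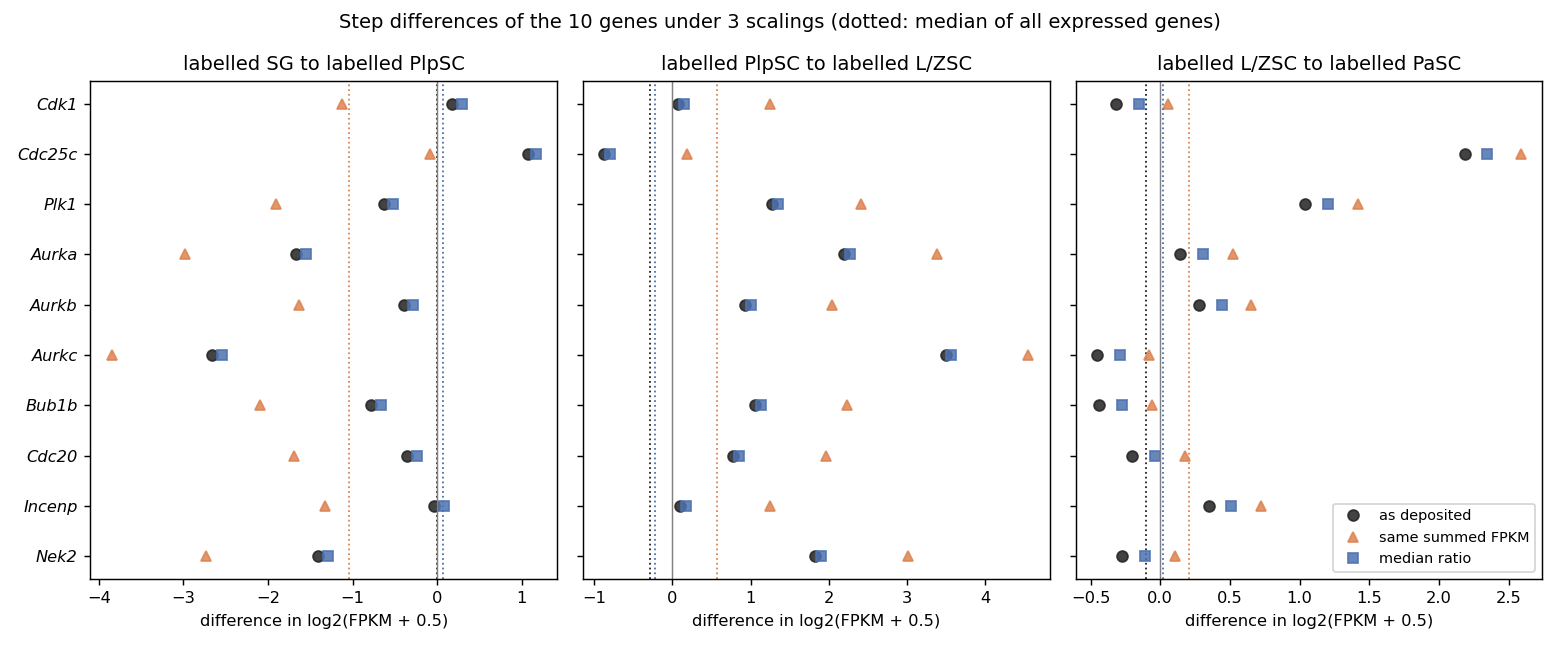
Difference in log2(FPKM + 0.5) of each gene at the 3 steps between labelled libraries (horizontal axes), as deposited (circles), scaled to equal library sums (triangles) and by median ratios (squares). Dotted lines mark the median of all expressed genes under each scaling, and Aurkc, Aurka and Nek2 lie below it at the first step and above it at the second under all 3.

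The other genes of the division machinery were more divided than the members in the deposited values. Beside the members, 8 lists held 92 further genes, of which 90 were expressed. From PlpSC- to L/ZSC-labelled cells, 30 of the 90 were more than 1.5 times higher and 34 lower, near the 30.7% and 45.4% of all expressed genes. PlpSC-labelled cells were the highest for 41 of the 90 and the lowest for 32, also near the background of 41.3% and 33.8%. After scaling to equal sums they were the highest for 9 and the lowest for 65, against 11.6% and 58.7% of expressed genes. From SG- to PlpSC-labelled cells 28 were higher and 21 lower, against 30.1% and 30.9% of expressed genes. From L/ZSC- to PaSC-labelled cells 9 were higher and 24 lower, against 24.9% and 24.6%. After scaling to equal sums the counts were 2 higher and 66 lower from SG- to PlpSC-labelled cells, 56 higher and 13 lower at the next step and 16 higher and 5 lower at the last, so their balance depends on the scaling. Of all expressed genes, 8.62% were higher and 70.4% lower at the first step under that scaling, 52.8% and 23.7% at the next and 34.6% and 11.5% at the last. The counts by list that follow, at the step from PlpSC- to L/ZSC-labelled cells, are to be read against these shares.

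The list of Aurora kinases and the chromosomal passenger complex held 4 members and 7 other genes. Of these 11 genes 8 (5 of the 7 others) were higher in L/ZSC-labelled cells than in PlpSC-labelled cells and 1 was lower, against 30.7% and 45.4% of expressed genes, with a median difference of 0.88 in log2(FPKM + 0.5). Gsg2, which encodes the histone H3 kinase haspin that places the complex at centromeres, was at 158 FPKM in SG-labelled cells, 17.1 in PlpSC-, 246 in L/ZSC- and 365 in PaSC-labelled cells. Cdca8, which encodes the subunit borealin, was at 87.3, 57.5, 106 and 77.9 FPKM in the same order. At the last step 0 of the 11 passed 1.5-fold in either direction, where 24.9% of expressed genes were higher and 24.6% lower. After scaling to equal sums 3 were higher and 0 lower, against 34.6% and 11.5% of expressed genes.

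The CDK1 switch list was divided. Of 17 expressed genes, members included, 5 were higher and 8 lower from PlpSC- to L/ZSC-labelled cells, and 9 higher and 3 lower after scaling to equal sums. The A-type cyclins went opposite ways: Ccna1, the meiotic cyclin, was at 43.7, 4.08, 86.5 and 142 FPKM from SG- to PaSC-labelled cells, and Ccna2, the somatic cyclin, at 10.3, 29.8, 5.42 and 3.09 FPKM. The ratio of Ccna1 to Ccna2 was 0.137 in PlpSC-labelled cells and 45.8 in PaSC-labelled cells, a difference that no scaling between libraries alters. Ccnb3, a cyclin of early meiotic prophase, was at 27.8 FPKM in PlpSC-labelled cells and 0.495 in PaSC-labelled cells. Ccnb2, a B-type cyclin partner of CDK1, was at 43.7 and 147 FPKM in these libraries. Cks2, a CDK-binding subunit needed for the first meiotic division in mice, was at 398, 194, 463 and 263 FPKM.

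Among 14 spindle checkpoint genes, members included, 6 were higher and 3 lower from PlpSC- to L/ZSC-labelled cells, and 11 higher and 0 lower after scaling to equal sums. Bub1, the checkpoint kinase related to Bub1b, stood at 34.0 FPKM in SG-labelled cells, 95.7 in PlpSC-, 29.8 in L/ZSC- and 30.6 in PaSC-labelled cells. The ratio of Bub1 to Bub1b was therefore 3.16 in PlpSC-labelled cells and 0.468 to 0.652 in the other libraries. After scaling to equal sums Bub1 was highest in PlpSC-labelled cells by less, at 51.8 FPKM against 37.1 to 49.5 in the others. Mad2l1, whose product binds CDC20, was at 26.7 FPKM in PlpSC-labelled cells and 6.27 in PaSC-labelled cells, though after scaling to equal sums it was highest in SG-labelled cells. Bub3, which recruits both BUB kinases, was lowest in PlpSC-labelled cells at 46.3 FPKM and reached 88.3 in L/ZSC-labelled cells. Mad2l1bp, which encodes a factor that helps to switch the checkpoint off, was at 5.21 FPKM in PlpSC-labelled cells and 19.2 in PaSC-labelled cells.

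Kinetochore genes differed among themselves. Cenpa, the centromeric histone H3 variant, was at 8.33 FPKM in SG-labelled cells, 26.9 in PlpSC-, 3.60 in L/ZSC- and 1.24 in PaSC-labelled cells. Spc25, an outer kinetochore gene, was at 27.5 FPKM in PlpSC-labelled cells and 7.72 to 11.6 in the others (after scaling to equal sums it was highest in PaSC-labelled cells), whereas its partner Nuf2 in the NDC80 complex was lowest in PlpSC-labelled cells, at 31.8 FPKM against 53.0 to 73.0. Of the 12 kinetochore genes 1 was higher and 3 were lower from PlpSC- to L/ZSC-labelled cells, which turned to 9 higher and 2 lower after scaling to equal sums.

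In the anaphase-promoting complex list, 9 of 22 genes were higher and 9 lower at the same step, or 13 and 2 after scaling to equal sums. The APC/C inhibitors Fbxo5 and Fbxo43 went opposite ways: Fbxo5 (EMI1), which acts in mitotic cycles, was at 9.34 FPKM in PlpSC-labelled cells and 1.11 in PaSC-labelled cells, and Fbxo43 (EMI2), known from meiosis, at 4.43 in PlpSC-labelled cells, 42.5 in L/ZSC-labelled cells and 18.4 in PaSC-labelled cells. Pttg1, the securin gene, was at 52.1 FPKM in PlpSC-labelled cells and 230.5 in L/ZSC-labelled cells. Ube2s, a ubiquitin-conjugating enzyme of the APC/C, was the highest gene of the list at 801 to 1252 FPKM.

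Nek2 held the highest FPKM of the 11 NEK kinase genes in each library. Of the 10 expressed, 5 were higher and 4 lower from PlpSC- to L/ZSC-labelled cells, or 6 and 1 after scaling to equal sums. Nek4 followed Nek2 in direction, at 22.5 FPKM in PlpSC-labelled cells and 65.6 in L/ZSC-labelled cells. Nek1 and Nek7 were highest in PlpSC-labelled cells, at 36.4 and 10.5 FPKM against 16.5 and 1.27 in L/ZSC-labelled cells, but after scaling to equal sums Nek1 was not. Among 13 proliferation genes 3 were higher and 6 lower at this step, which turned to 7 higher and 4 lower after scaling to equal sums. Top2a, the topoisomerase of dividing cells, was at 162 FPKM in PlpSC-labelled cells and 77.9 in L/ZSC-labelled cells, and this direction turned after scaling to equal sums. Prc1, a spindle midzone gene, was at 41.2 and 135 FPKM.

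**Figure D4:**
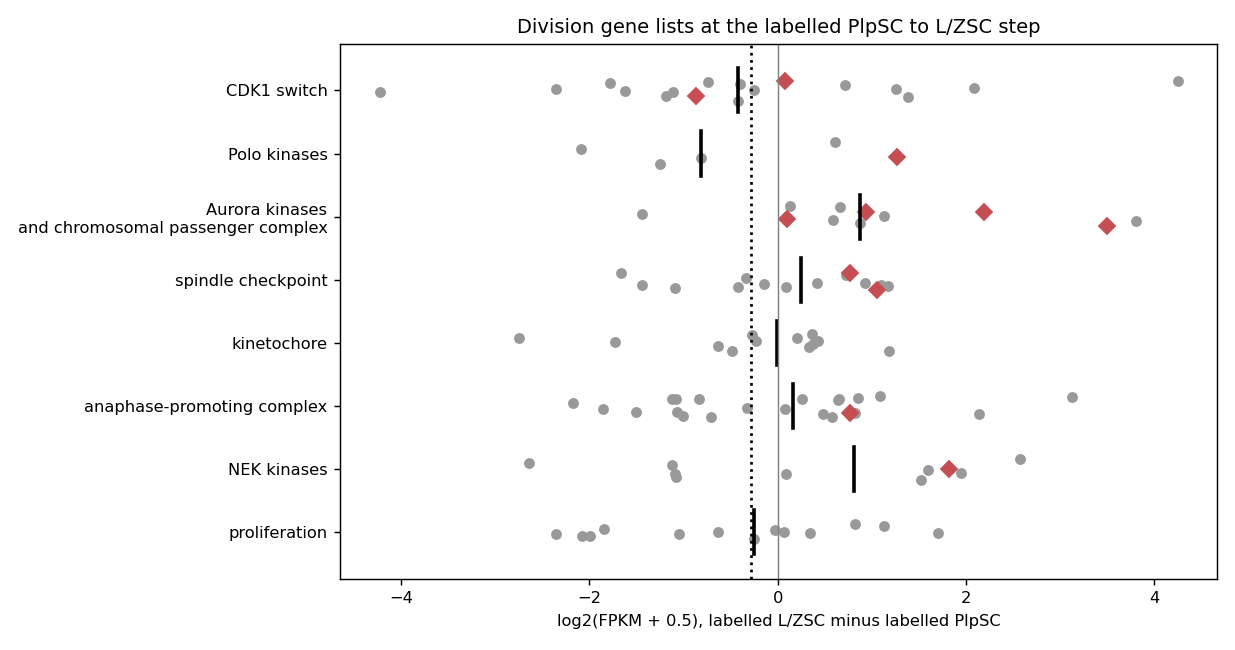
Difference in log2(FPKM + 0.5) between L/ZSC- and PlpSC-labelled cells (horizontal axis) for the expressed genes of 8 lists, with members as red diamonds, other genes as grey circles and list medians as black bars. The dotted line is the median of all expressed genes, -0.29, and the Aurora and chromosomal passenger list has its median at 0.88.

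Genes with the most similar profiles were sought among the genes of at least 5 FPKM in any library, by the same distance, with 3 for each member. Of these 30 nearest genes 0 were members. The nearest to Cdk1 was Rpl8, a ribosomal protein gene, at a distance of 0.04, and the nearest to Cdc20 was Ndufa9, a subunit gene of respiratory complex I, at 0.02. Aurka lay nearest to Me3, Kat8 and Pfkm, and Nek2 to Man2c1, Dhx30 and Znhit3. Aurkc had more distant neighbours, led by 1700064M15Rik at 0.15, and Cdc25c by Tmem205 at 0.13. With 4 libraries many genes share a profile, so the distances describe these columns only.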

How the data were processed

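RNA-seq of 4 libraries was analysed, 1 per labelled stage. For mapping, the authors ran TopHat with its default options against mm10, and the FPKM they deposited are Cuffdiff values of RefSeq genes. Program versions, and whether Cuffdiff scaled the libraries, were not found in the sources. The table was handled in Python 3.11.15 (numpy 2.4.6, pandas 2.3.3), and 0 columns were left unused. Intervals came from scipy 1.17.1 (exact Poisson for a level, Clopper-Pearson for a ratio), and plots from matplotlib 3.10.9.

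The members and lists were chosen with earlier results of these data known. A gene was kept if any library reached 0.5 FPKM, the study's filter, and the study's fold threshold of 1.5 was used. With 1 library per stage there is no test and no SD. Read totals were not used here. The worth of 1 fragment was estimated, by a window chosen after seeing the data, as the median product of FPKM and GENCODE M21 transcript length, between 32 and 64, over 131 to 170 values of genes with 1 transcript over 1000 bases. Fragments behind a member's value used its longest RefSeq-linked transcript, and are rough where the authors' transcript models differ. Scaling and calling were tested on simulated data.

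Named genes were the 10 members, the 3 highest and the 2 widest-ranging genes of each pathway list (of at least 5 FPKM), the nearest genes by profile and the 2 highest markers of each list, of which those bearing on a result are given. To complete their family, Cdc25a and Cdc25b were added once their values had been seen. Of the list names 4 were matched by an older symbol and 1 was not found. Promoters came from RefSeq (GRCm38.p6).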

Additional observations from a re-analysis of the deposited data

How the results depend on the processing

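Alternatives were 2 scalings of the libraries, a 2-fold threshold, pseudocounts of 0.1 and 1, filters on low values and leaving out libraries. The counts lowest in labelled PlpSC, and those without each library, were alternatives chosen after seeing the data. After scaling to equal sums of FPKM, members from labelled SG to labelled PlpSC were 0 higher and 9 lower with a median of -1.80, where 8.62% and 70.4% of all expressed genes were higher and lower. From labelled PlpSC to labelled L/ZSC 0 were lower (23.7% of all), with a median of 2.14, and at the last step 4 were higher (34.6% of all). Under that scaling the other pathway genes higher at the 3 steps numbered 2, 56 and 16, and those lower 66, 13 and 5. It turned Cdc25c to -0.085 and 0.19 in log2(FPKM + 0.5) at the first 2 steps. In labelled PlpSC the 10 most abundant genes made up 68.1% of that sum. Median ratio scaling gave 14 lower pathway genes at the last step, where 17.3% of all expressed genes were lower. With a 2-fold threshold, 3 members were lower and 1 higher from SG- to PlpSC-labelled cells. From PlpSC- to L/ZSC-labelled cells 0 were lower and 5 higher at that threshold. The shares of all expressed genes were not computed at 2-fold, so these counts have no background beside them. The members with a ratio of highest to lowest over 1.5 were 5 without the library labelled PlpSC (73.7% of expressed genes), against 8 (92.3%). Members lowest in labelled PlpSC were 10 under equal sums, 7 under median ratios and 8 without labelled SG, beside 58.7%, 34.9% and 38.4% of expressed genes. Other pseudocounts gave medians of the members of -0.53 to -0.49, 0.97 to 1.02 and -0.03 at the 3 steps. No paired analysis was possible because each stage has 1 library. By the longest transcript an estimated 86 fragments or more lay behind each member value. By its shortest RefSeq-linked transcript Aurkc in labelled PlpSC had 75. Counting error was small beside most differences, but it does not cover differences between animals or preparations.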
